A study of Mus musculus with 25 samples.

Results

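Leptomeningeal and fibroblast genes are genes that mark the thin membranes covering the brain and the fibroblasts of those membranes and of vessel walls. The set held 32 genes, matched by symbol, of 23990 genes in the table. They were selected on cell-type knowledge together with their values in these same libraries, so their spread between libraries and the direction they share are given as descriptions, with no test of either. The set is ordered here by role: 5 membrane transporters, 7 collagens and collagen partners, 5 small leucine-rich proteoglycans, 9 secreted factors, and 6 genes of retinoic acid handling, transcription or gap junctions.

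The series sequenced total RNA of the prefrontal cortex of mice, a frontal region of the cerebral cortex, to ask how males and females respond to social defeat stress and to a treatment. The labels describe 25 samples in 6 groups, 13 from males and 12 from females, all wild-type C57BL/6 mice of 10 weeks: unstressed controls, stressed mice given vehicle and stressed mice given dihydrocaffeic acid and malvidin-glucoside, each in both sexes. Dosing started 2 weeks before social defeat and went on through it. The values here come from 5 libraries of males that were stressed and given vehicle, the one group that the table's column names can be tied to. That tie rests on the group of 5 having the one letter used in 5 names, with the digit after it taken for the replicate, 1 to 5. No effect of stress, treatment or sex is therefore reported. The labels do not say that the 5 libraries came from 5 animals, so their spread may be technical in part.

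The meninges enclose the brain in layers. The inner layers, the arachnoid and the pia, are built by fibroblasts that lay down fibrillar collagens and small proteoglycans, carry organic solutes through membrane transporters between cerebrospinal fluid and blood, and secrete retinoic acid and growth factors that reach the cortex beneath. Forkhead factors of the Foxc family are needed for these layers to form. A piece of cortex can carry pia on its surface and perivascular fibroblasts along its vessels, and in RNA from a whole piece, fewer cells of a type and less RNA per cell cannot be told apart.

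Depth ran from 34565147 reads in replicate 4 to 44265039 in replicate 3, so that 3 reads, taken as the limit of detection, stood for 0.0673 to 0.0870 CPM, the read count scaled to a common library depth. Markers of the labelled tissue were present: the cortical excitatory neuron gene Slc17a7 had a mean of 1926 CPM. Of the 32 members, 29 averaged 1 CPM or more, and Lum, Slc47a1 and Crabp2 did not. Together the members held 591 to 827 CPM, of which Col6a1 (30.3% of their reads), Ptgds (29.3%) and Ccn3 (13.4%) made up most. Without these 3 genes the sum was 194, 149, 132, 262 and 177 CPM in replicates 1 to 5. Every pair of libraries differed by more than counting error in at least 5653 genes, so no library was a copy of another.

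The 5 libraries did not hold the members at one level. Replicate 4 was the highest library for 23 of the 29 members, against 26.9% of all 14524 genes of at least 1 CPM. Replicate 3 was the lowest for 15 of the 29, against 17.0% of those genes. The difference between the highest and the lowest library was at least 1 on the log2 scale, a 2-fold difference, for 21 of 29 members; over all genes of at least 1 CPM that share was 6.35%. Among genes of 1 to 20 CPM, where counting error is larger, 18 of 24 members passed this size and 12.3% of all such genes. The median log2 difference between extreme libraries was 1.41 for the members and 0.33 for all genes. Ogn and Foxd1 count among the 23, the 21 and the 18, but they averaged 1 CPM only through replicate 4. Their means without it were 0.758 and 0.898 CPM. With no filter on level, replicate 4 was highest for 26 of 32 members. Reads of 32 of 32 members varied beyond counting error (chi-square test against proportional reads, Benjamini-Hochberg adjusted p under 0.05), but so did 74.4% of the 19239 genes tested, and nothing is read from that count.

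**Figure D1:**
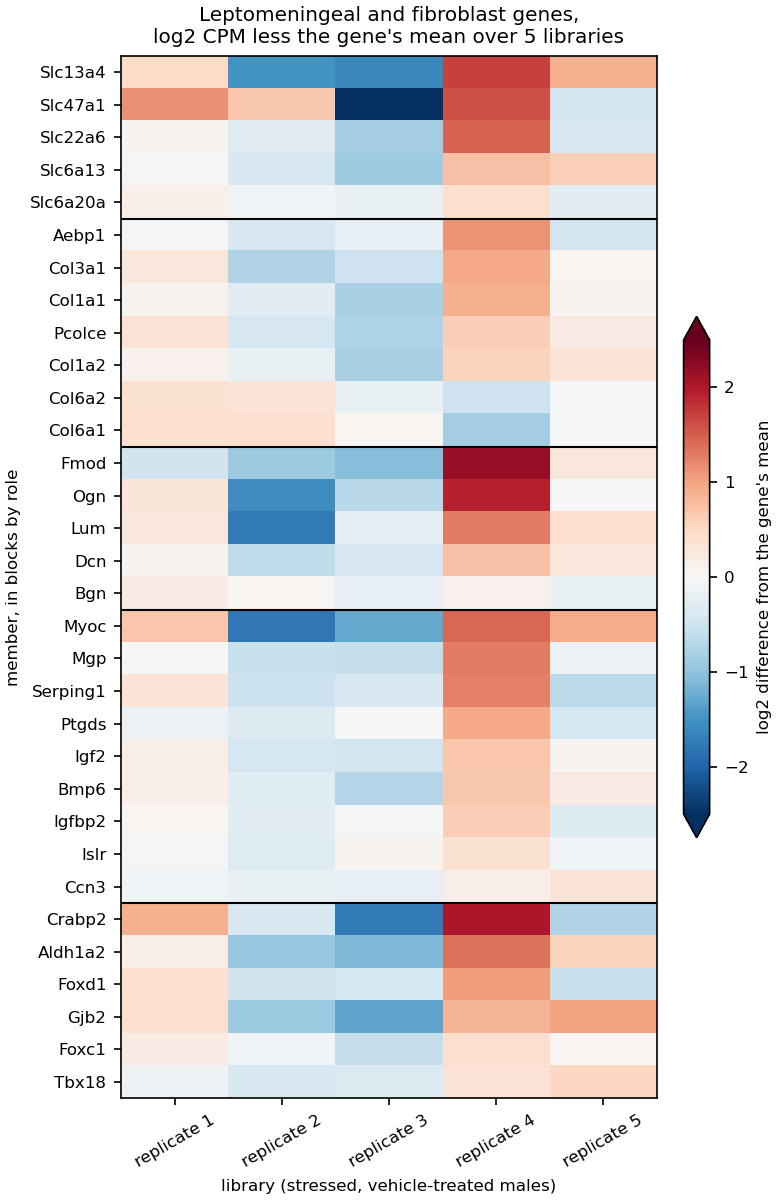
Each cell is a member's log2 CPM in a library less its mean over the 5 libraries of stressed, vehicle-treated males, with members in blocks by role (transporters, collagens and partners, small leucine-rich proteoglycans, secreted factors, then retinoid, transcription factor and gap junction genes). The column of replicate 4 is red for most members and blue for Col6a1 and Col6a2, and the columns of replicates 2 and 3 are mostly blue.

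A score was taken for each library as the median, over the members of at least 1 CPM, of the log2 value less the gene's mean. It was 0.15, -0.41, -0.52, 0.74 and 0.06 in replicates 1 to 5, a span of 1.26 on the log2 scale or 2.40-fold. Replicate 4 stood above the rest, replicates 1 and 5 lay near the middle and replicates 2 and 3 were low. Replicate 1 was the second highest library for 14 members and replicate 5 for 8, counts that were not taken over all genes and are given as a description. Without replicate 4 the span was 0.58, with replicate 5 highest. Ogn and Foxd1 then fell under 1 CPM, and 10 of the 27 members left still differed 2-fold between extreme libraries. The share of all genes that did so without replicate 4 was not taken.

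The upstream sequences of 5 members are shown because these genes mark the ends of the pattern: Fmod, Ogn, Slc13a4 and Myoc had the widest spread among members of at least 1 CPM, and Col6a1 went the other way in replicate 4. Each runs 5′ to 3′ on the gene's own strand and ends at or before the start of the gene. Capitals mark a match to 1 of 4 motifs searched on both strands: the forkhead core GTAAACA, the T-box core AGGTGTGA, the TATA box TATAAA and the GC box GGGCGG. The letters come from RefSeq, build GRCm38.p6: Fmod at chr1:134037004-134037253 (plus strand), Ogn at chr13:49607765-49608014 (plus), Slc13a4 at chr6:35308132-35308376 (minus), Myoc at chr1:162638900-162639149 (plus) and Col6a1 at chr10:76726169-76726294 (minus).
Fmod: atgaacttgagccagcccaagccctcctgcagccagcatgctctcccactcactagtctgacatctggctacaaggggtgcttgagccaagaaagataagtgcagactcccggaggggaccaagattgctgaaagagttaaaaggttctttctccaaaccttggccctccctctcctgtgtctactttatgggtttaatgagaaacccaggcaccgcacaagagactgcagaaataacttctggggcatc
Ogn: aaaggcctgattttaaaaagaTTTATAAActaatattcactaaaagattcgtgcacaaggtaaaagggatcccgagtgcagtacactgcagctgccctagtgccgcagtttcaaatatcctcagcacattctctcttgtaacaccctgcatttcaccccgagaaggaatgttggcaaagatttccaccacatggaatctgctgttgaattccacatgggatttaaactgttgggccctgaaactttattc
Slc13a4: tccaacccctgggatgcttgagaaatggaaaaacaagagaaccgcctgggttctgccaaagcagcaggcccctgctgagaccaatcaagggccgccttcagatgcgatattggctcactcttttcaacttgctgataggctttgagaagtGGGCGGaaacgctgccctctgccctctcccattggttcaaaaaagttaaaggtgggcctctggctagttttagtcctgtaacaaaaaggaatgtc
Myoc: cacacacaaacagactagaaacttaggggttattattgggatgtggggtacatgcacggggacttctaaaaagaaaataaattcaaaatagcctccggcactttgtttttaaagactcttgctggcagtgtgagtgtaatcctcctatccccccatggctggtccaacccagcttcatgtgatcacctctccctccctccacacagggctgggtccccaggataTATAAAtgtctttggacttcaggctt
Col6a1: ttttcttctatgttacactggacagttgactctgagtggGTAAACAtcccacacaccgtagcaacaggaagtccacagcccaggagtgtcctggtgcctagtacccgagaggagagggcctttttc

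These upstream stretches did not share 1 of the searched motifs across all 5. Positions are counted back from the RefSeq start, and the last 124 bases of the Col6a1 window and the last 5 of the Slc13a4 window, which lie inside the annotated gene, are not printed. Myoc had a TATA match 26 bases before its start, and Ogn held an overlapping pair of TATA matches 229 and 227 bases before its start. Slc13a4 held a GC box 100 bases before its RefSeq start, Col6a1 a forkhead match 211 bases before its RefSeq start, and Fmod none of the 4 motifs. The RefSeq table listed 24 of the 32 members with 31 starts. In the 250 bases before those starts, the forkhead core occurred at 1 start (3.17% of all 32851 starts), the T-box core at 0 (1.12%), the TATA box at 3 (12.4%) and the GC box at 15 (32.7%). A match to such short letters is a description of the window and says nothing of binding.

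The transporters carry organic anions, neutral amino acids, sulfate and cations across the membranes of the arachnoid barrier. The score of the 4 transporters of at least 1 CPM ran from -0.88 in replicate 3 to 1.10 in replicate 4, and 4 of 4 were highest in replicate 4. Their score spanned 1.98 on the log2 scale with replicate 4 and 0.96 without it.

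Slc13a4, a sodium-coupled sulfate transporter (chr6:35267957-35308131, minus strand), stood at 2.55, 0.628, 0.583, 5.92 and 3.32 CPM in replicates 1 to 5 (2.598 ± 2.21 CPM, SD, n = 5). Replicates 1, 4 and 5 were clear of replicates 2 and 3: the exact 95% Poisson interval was 2.09 to 3.09 CPM in replicate 1, against 0.402 to 0.934 CPM in replicate 2. These intervals cover counting error only. Slc22a6, the organic anion transporter OAT1 (chr19:8618039-8628299, plus strand), stood at 1.54, 1.20, 0.807, 4.06 and 1.08 CPM (1.74 ± 1.32 CPM, SD, n = 5). Replicate 4 carried it, with 3.51 times the others' mean, and its log2 difference between extreme libraries fell from 2.32 to 0.92 without that library.

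Slc6a13, the GABA transporter GAT2, had 2 high libraries, replicates 4 and 5 at 6.58 and 6.00 CPM, and stood at 3.90, 2.98 and 2.11 CPM in replicates 1 to 3 (4.31 ± 1.92 CPM, SD, n = 5). Slc6a20a, a proline transporter, varied least of the transporters and ran from 5.10 CPM in replicate 5 to 8.29 CPM in replicate 4. The cation and drug exporter Slc47a1 lay under 1 CPM, with 39, 26, 2, 45 and 12 reads in replicates 1 to 5. Its 2 reads in replicate 3 gave 0.0448 CPM with an exact Poisson interval of 0.00543 to 0.162 CPM, below the interval of 0.952 to 1.75 CPM in replicate 4.

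The neighbours of Slc22a6 and Slc6a13 in the genome, Slc22a8 and Slc6a12, are paralogues of them. Slc22a8, the organic anion transporter OAT3, which is also made by brain endothelium, stood at 14.8, 15.7, 13.8, 15.0 and 17.9 CPM. That is a 1.30-fold spread with replicate 5 highest, beside 5.03-fold for Slc22a6. Slc6a12, the betaine and GABA transporter, stood at 0.578, 0.523, 0.426, 0.696 and 0.578 CPM, with replicate 4 highest and replicate 3 lowest, as for its neighbour Slc6a13. It rested on 19 to 24 reads per library, a spread not beyond counting error (chi-square test, Benjamini-Hochberg adjusted p = 0.626).

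**Figure D2:**
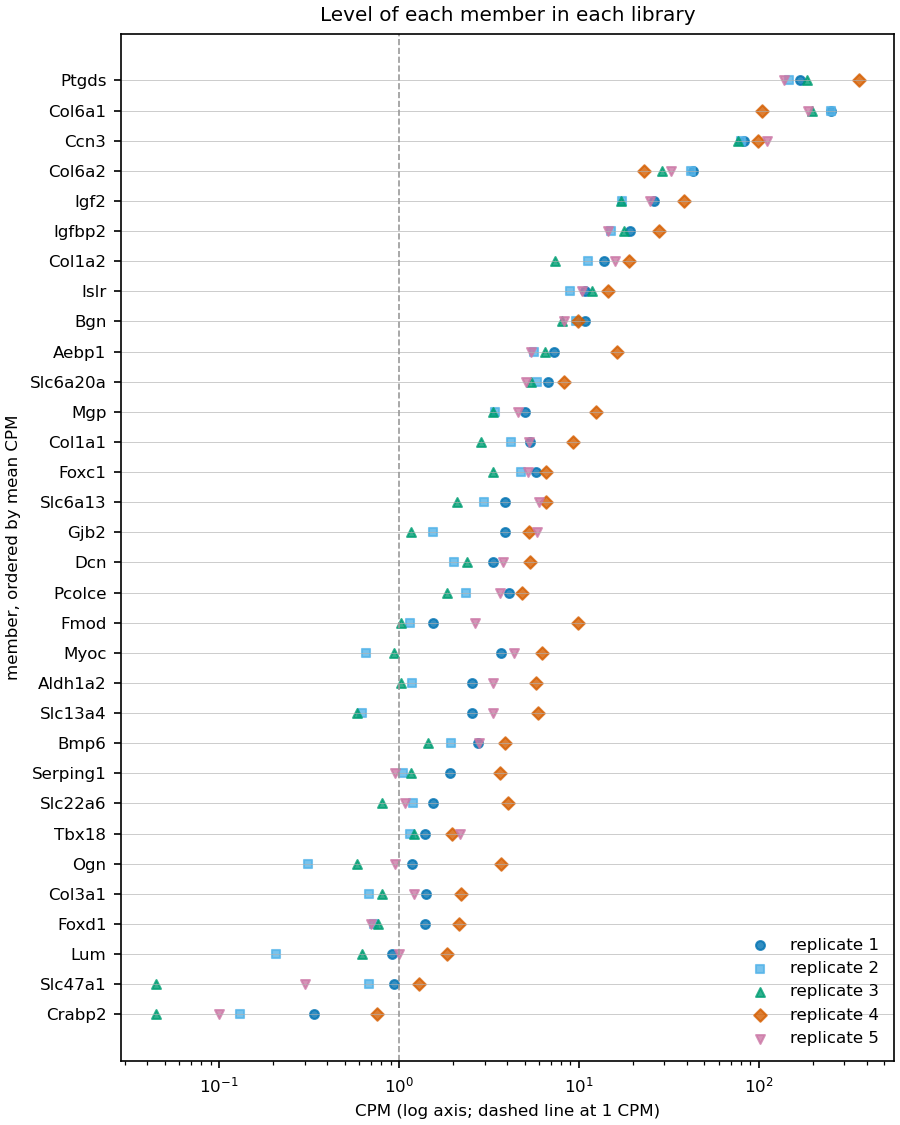
Each row is a member and each marker its CPM in 1 of the 5 libraries of stressed, vehicle-treated males, on a log axis, with the dashed line at 1 CPM. Orange diamonds of replicate 4 lie at the right end of most rows and at the left end for Col6a1 and Col6a2.

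Collagens of the set fell into 2 patterns. The fibrillar collagen genes Col1a1, Col1a2 and Col3a1, whose products form the collagen fibres of the meninges, were highest in replicate 4. The type VI collagen genes Col6a1 and Col6a2, whose products form beaded microfibrils around cells, were lowest there. They were the only 2 of 29 members lowest in replicate 4, a library that was lowest for 23.5% of all genes of at least 1 CPM.

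Col1a1 (chr11:94936224-94953042, plus strand) stood at 5.34, 4.18, 2.87, 9.34 and 5.27 CPM in replicates 1 to 5 (5.40 ± 2.42 CPM, SD, n = 5). Col1a2, which encodes the partner chain of the same triple helix, stood at 13.77, 11.30, 7.353, 18.99 and 15.98 CPM (13.48 ± 4.44 CPM). Both chains had replicate 4 highest and replicate 3 lowest, and their ratio stayed between 0.330 and 0.492. Col3a1, the chain of type III collagen (chr1:45311538-45349706, plus strand), stood at 1.42, 0.680, 0.807, 2.23 and 1.21 CPM, with replicate 2 lowest. Without replicate 4, the log2 difference of Col1a1 went from 1.70 to 0.89 and that of Col3a1 from 1.70 to 1.05.

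Col6a1 (chr10:76708792-76726168, minus strand) stood at 252, 253, 197, 105 and 189 CPM (199 ± 60.4 CPM, SD, n = 5). Replicate 4 had 0.473 times the others' mean, and without it the log2 difference went from 1.27 to 0.42. Its neighbour on the same strand, Col6a2 (chr10:76595762-76623630), stood at 43.3, 41.9, 29.1, 23.1 and 32.4 CPM (33.9 ± 8.58 CPM). The ratio of the type VI pair ran from 4.57 to 6.77, whereas the ratio of Col6a1 to Col1a2 ran from 5.55 in replicate 4 to 26.8 in replicate 3. Col6a3, which encodes the third chain of type VI collagen, did not share the low value: it stood at 3.01, 4.13, 3.95, 4.00 and 3.11 CPM.

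A pair of collagen genes outside the set, picked after their values were seen, was lowest in replicate 4, as Col6a1 was. Col5a1, a chain of type V collagen, which is itself a fibrillar collagen, stood at 86.3, 89.3, 59.3, 26.7 and 56.4 CPM. Col12a1, a collagen that lies on fibril surfaces, stood at 74.4, 102, 72.6, 40.7 and 64.6 CPM. Both had replicate 2 as the highest library and replicate 4 as the lowest. For Col6a1 the highest library was not settled. Its exact 95% Poisson intervals were 247 to 256 CPM in replicate 1 and 248 to 258 CPM in replicate 2. Scaling to total reads put replicate 1 highest. Col5a2, another chain of type V collagen, was also lowest in replicate 4, at 6.96, 6.88, 6.23, 5.16 and 7.16 CPM, so fibrillar collagen genes as a class did not share a direction there. Other collagens outside the set were divided. Col8a1 was highest in replicate 4, at 2.58 CPM, and Col4a5 and Col15a1 were at neither end there, at 2.96 and 6.18 CPM. Col4a6 was lowest there, at 0.812 CPM, a spread not beyond counting error (chi-square test, Benjamini-Hochberg adjusted p = 0.275). Without the type VI pair the score of the members spanned 1.43 in place of 1.26.

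**Figure D3:**
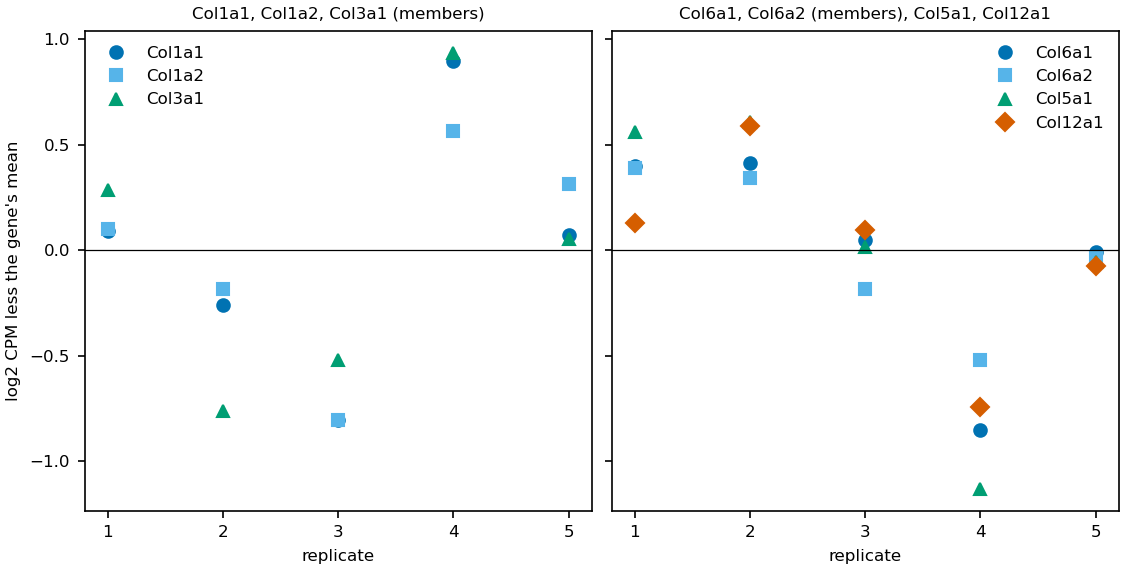
Points are log2 CPM less the gene's mean, by replicate, for Col1a1, Col1a2 and Col3a1 on the left and for Col6a1, Col6a2 and the non-members Col5a1 and Col12a1 on the right. Replicate 4 holds the highest point of each gene on the left and the lowest of each on the right. Col5a1 and Col12a1 were picked after their values were seen, and other collagens outside the set are not shown.

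The collagen partners were highest in replicate 4, as Col1a1, Col1a2 and Col3a1 were. Aebp1, a secreted collagen-binding protein (chr11:5861947-5872088, plus strand), stood at 7.27, 5.65, 6.52, 16.3 and 5.40 CPM (8.22 ± 4.56 CPM, SD, n = 5). The other 4 libraries lay close together, and without replicate 4 its log2 difference was 0.43 in place of 1.59. Pcolce, which enhances the trimming of procollagen, stood at 4.09, 2.35, 1.86, 4.84 and 3.67 CPM, with replicate 1 close behind replicate 4. Pcolce shares part of its span with Fbxo24 on the same strand, and how reads of overlapping genes were counted is not given in the sources used here.

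Small leucine-rich proteoglycans bind collagen fibrils and set their width and spacing. Fmod and Ogn had the largest spread of the set among members of at least 1 CPM together with Slc13a4 and Myoc, and Bgn had the smallest. The score of the 4 genes of at least 1 CPM ran from -0.77 in replicate 2 to 1.35 in replicate 4, the widest span of the 5 role groups at 2.12. Without replicate 4 it was 0.81, over 3 genes.

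Fmod, fibromodulin (chr1:134037254-134048277, plus strand), stood at 1.54, 1.15, 1.03, 9.86 and 2.66 CPM (3.25 ± 3.75 CPM, SD, n = 5). Replicate 4 alone held 340 reads, 6.18 times the mean of the others, and the mean without it was 1.596 CPM. Ogn, osteoglycin (chr13:49608046-49624501, plus strand), stood at 1.18, 0.314, 0.583, 3.71 and 0.955 CPM (1.35 ± 1.36 CPM). Its mean without replicate 4 was 0.758 CPM. Ogn lies inside the span of Cenpp on the other strand, and since the strand setting of the counting is not given in the sources used here, reads of the pair cannot be told apart.

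Omd, osteomodulin, a paralogue in the same cluster as Ogn, had 20 reads in replicate 4 (0.580 CPM), 2 in each of replicates 3 and 5, and 0 in replicates 1 and 2, which allows up to 0.0722 and 0.0784 CPM there. Aspn, asporin, of the same cluster, did not show this order: it stood at 0.578, 1.15, 0.628, 1.04 and 0.653 CPM. Prelp, a paralogue near Fmod, was highest in replicate 1 at 14.6 CPM and stood at 10.2 CPM in replicate 4.

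Dcn, decorin (chr10:97479609-97518143, plus strand), stood at 3.32, 2.04, 2.38, 5.34 and 3.82 CPM (3.38 ± 1.31 CPM, SD, n = 5). Lum, lumican, the next member along the same chromosome (chr10:97565128-97572703), lay under 1 CPM on average and stood at 0.914, 0.209, 0.628, 1.86 and 1.00 CPM. Both had their highest level in replicate 4 and their lowest in replicate 2, where Lum rested on 8 reads (exact 95% Poisson interval 0.0903 to 0.412 CPM). Bgn, biglycan, on the X chromosome, broke the pattern: it stood at 10.8, 9.68, 8.07, 9.97 and 8.31 CPM (9.36 ± 1.15 CPM), with replicate 1 highest and a log2 difference of 0.42.

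**Figure D4:**
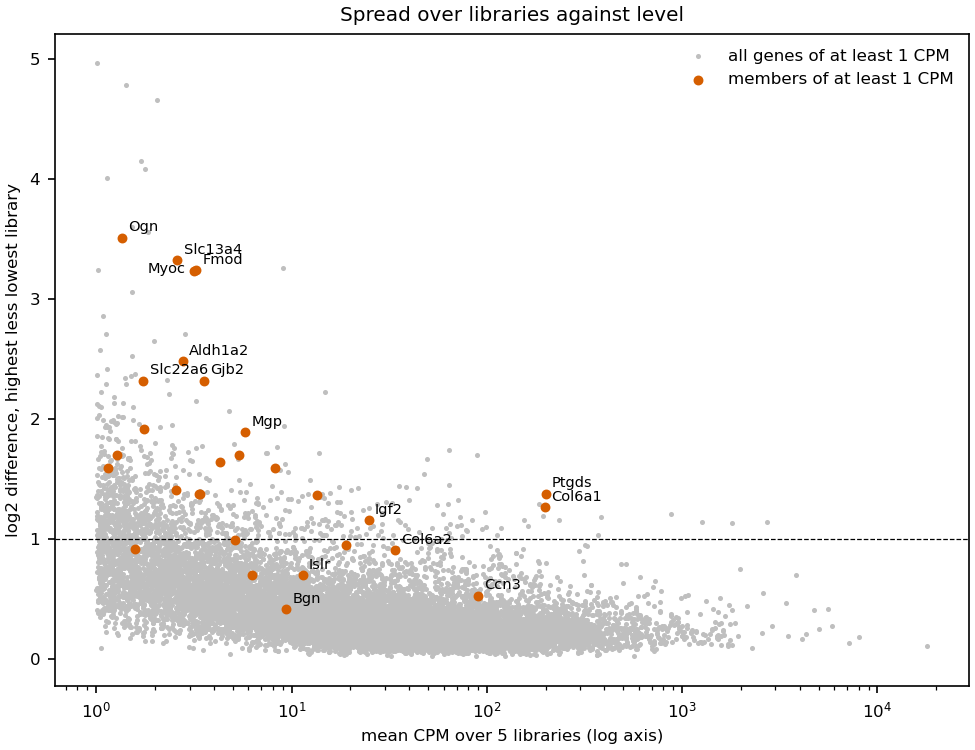
Each point is a gene of at least 1 CPM, with its mean CPM on a log axis against the log2 difference between its highest and lowest library; members are orange and the dashed line marks a 2-fold difference. Members of 1 to 20 CPM lie mostly above the line (18 of 24), whereas Bgn, Islr and Ccn3 lie among the other genes.

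Secreted factors held the most abundant member per length. Ptgds, which makes prostaglandin D2 and is also a carrier of small lipids in cerebrospinal fluid, had a mean RPKM, the CPM per kilobase of exon, of 121 ± 55.4 (SD, n = 5), ahead of Col6a1 at 45.5 ± 13.8, Ccn3 at 31.4 ± 5.18 and Igfbp2 at 10.3 ± 2.94 RPKM. In CPM, Ptgds stood at 169, 147, 185, 360 and 138 in replicates 1 to 5. Replicate 4 was 2.25 times the mean of the others, and without it the log2 difference went from 1.38 to 0.42. Ptgds is also made by oligodendrocytes. Of the 10 genes of the oligodendrocyte list, 8 were lowest in replicate 4, where Ptgds was highest, and 2 in replicate 5. Over all genes of at least 1 CPM, 23.5% were lowest in replicate 4 and 16.3% in replicate 5. Over replicates 3, 1, 2 and 5, Ptgds fell in the same order as the oligodendrocyte score, which was 0.60, 0.32, 0.08 and -0.46. The source of the Ptgds reads was not tested.

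Both genes of insulin-like growth factor signalling in the set were highest in replicate 4 too. Igf2, a growth factor of the meninges and choroid plexus (chr7:142650766-142666816, minus strand), stood at 26.3, 17.4, 17.1, 38.4 and 25.0 CPM (24.8 ± 8.67 CPM, SD, n = 5). Its antisense transcript Igf2os reached at most 0.203 CPM, and its imprinted neighbour H19 at most 0.0241 CPM, a single read. Igfbp2, which binds insulin-like growth factors, stood at 19.2, 15.1, 17.9, 28.1 and 14.6 CPM (18.96 ± 5.44 CPM). Its paralogue Igfbp5, made by several brain cell types, was highest in replicate 3 at 203 CPM and stood at 129 CPM in replicate 4.

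Mgp, matrix Gla protein, an inhibitor of tissue calcification (chr6:136872435-136875823, minus strand), stood at 5.05, 3.43, 3.36, 12.5 and 4.60 CPM (5.79 ± 3.83 CPM, SD, n = 5). Serping1, the C1 inhibitor of the complement cascade (chr2:84765387-84775444, minus strand), stood at 1.93, 1.05, 1.17, 3.65 and 0.955 CPM (1.75 ± 1.13 CPM). Both had a single high library, replicate 4, at 3.05 and 2.87 times the mean of the others. Without it their log2 differences went from 1.89 to 0.59 and from 1.92 to 1.00.

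Myoc, myocilin, a glycoprotein of fluid-draining tissue of the eye and of meninges (chr1:162639155-162649693, plus strand), had another shape. It stood at 3.71, 0.654, 0.942, 6.23 and 4.35 CPM (3.18 ± 2.36 CPM, SD, n = 5), so replicates 1, 4 and 5 were high and replicates 2 and 3 low. That split did not rest on replicate 4, since the log2 difference was 3.23 with it and 2.71 without. Myoc overlaps Myocos on the other strand, so its reads may include that gene. Bmp6, a bone morphogenetic protein, had the same 3 libraries on top at 2.74, 1.96, 1.46, 3.89 and 2.81 CPM, and its paralogue Bmp7 was highest in replicate 1 at 8.90 CPM.

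Islr and Ccn3 varied little beside most members, but both varied more than the median gene of at least 1 CPM, at a log2 difference of 0.33. Islr, a secreted protein of mesenchymal cells that shares its span with Islr2, stood at 10.9, 9.00, 11.9, 14.6 and 10.4 CPM, a log2 difference of 0.70. Ccn3, a matricellular protein also found in cortical neurons, was highest in replicate 5 at 111 CPM and stood at 99.6 CPM in replicate 4 and 77.0 to 82.9 CPM in the others, a log2 difference of 0.53.

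Retinoid, transcription factor and gap junction genes had, by their median, higher levels in replicates 1, 4 and 5 than in replicates 2 and 3, although Foxd1 was lowest in replicate 5 and Crabp2 was lower there than in replicate 2. The score of the 5 genes of at least 1 CPM was 0.20, -0.49, -0.60, 0.84 and 0.51 in replicates 1 to 5. Its span was 1.44 with replicate 4 and 1.39, over 4 genes, without it. Of the 5 role groups, this was the one whose span changed least without replicate 4. The 4 genes leave out Foxd1, which fell under 1 CPM without replicate 4, so the spans are not over the same genes.

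Aldh1a2, the enzyme that makes retinoic acid in meninges (chr9:71215789-71296243, plus strand), stood at 2.55, 1.18, 1.03, 5.80 and 3.34 CPM (2.78 ± 1.94 CPM, SD, n = 5). Crabp2, which carries retinoic acid inside the cell, had 14, 5, 2, 26 and 4 reads. Its interval in replicate 4 (0.492 to 1.10 CPM, exact 95% Poisson) lay above those of replicates 2, 3 and 5 and overlapped that of replicate 1. Gjb2, connexin 26 of the gap junctions between meningeal cells (chr14:57098600-57104702, minus strand), stood at 3.90, 1.54, 1.17, 5.28 and 5.88 CPM (3.55 ± 2.14 CPM), with replicate 5 highest. The log2 difference of Gjb2, 2.32, lay between replicates 5 and 3, so leaving out replicate 4 could not change it. Its neighbour and paralogue Gjb6, connexin 30 of astrocytes, spread 1.41-fold around 42.4 CPM.

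Foxc1, a forkhead factor needed for meningeal development, stood at 5.78, 4.81, 3.32, 6.61 and 5.22 CPM (5.15 ± 1.23 CPM, SD, n = 5). Its paralogue Foxc2 was scarcer, with 4, 20, 0, 46 and 10 reads, and 0 reads in replicate 3 allow up to 0.0673 CPM. Foxd1, a forkhead factor of mesenchyme, stood at 1.40, 0.732, 0.762, 2.15 and 0.703 CPM, with a mean of 0.898 CPM without replicate 4. Tbx18, a T-box factor of mural cells and fibroblasts, was highest in replicate 5 at 2.19 CPM, with 1.97 CPM in replicate 4 and 1.15 to 1.40 CPM in the others.

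Of the 29 members of at least 1 CPM, 11 stood higher in replicate 5 than in replicate 1: Slc6a13, Slc13a4, Col1a2, Dcn, Fmod, Aldh1a2, Tbx18, Ccn3, Myoc, Gjb2 and Bmp6. The share of all genes that did so was not taken. The 6 of 29 members lowest in replicate 5 were Slc6a20a, Igfbp2, Foxd1, Aebp1, Ptgds and Serping1, against 16.3% of all genes of at least 1 CPM. Replicate 2 was lowest for Col3a1, Dcn, Ogn, Tbx18, Myoc and Islr. The highest library was thus replicate 4 for 23 of 29, and the lowest library was divided among replicates 2, 3, 4 and 5.

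A wider list of 44 other fibroblast and leptomeningeal genes had a score with a much smaller span. Its 37 genes of at least 1 CPM had scores of 0.11, -0.07, -0.19, 0.14 and -0.02, a span of 0.34. Replicate 4 was highest for 18 of 37, against 26.9% of all genes of at least 1 CPM. Its most abundant genes, Slc38a2 (112 CPM on average), Foxp1 (85.0 CPM) and Cdh11 (74.7 CPM), are also made by other brain cells. A log2 difference of at least 1 occurred in 13 of 37, against 6.35% of all genes of at least 1 CPM. Postn counts among the 37, the 18 and the 13, but it averaged 1 CPM only through replicate 4. It stood at 1.01, 0.628, 1.26, 2.26 and 0.452 CPM. Without replicate 4 the list kept 36 genes, and its score spanned 0.28. Both lists were written with earlier results of these data known, and the members with their spread in view, so setting one beside the other is no test.

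**Figure D5:**
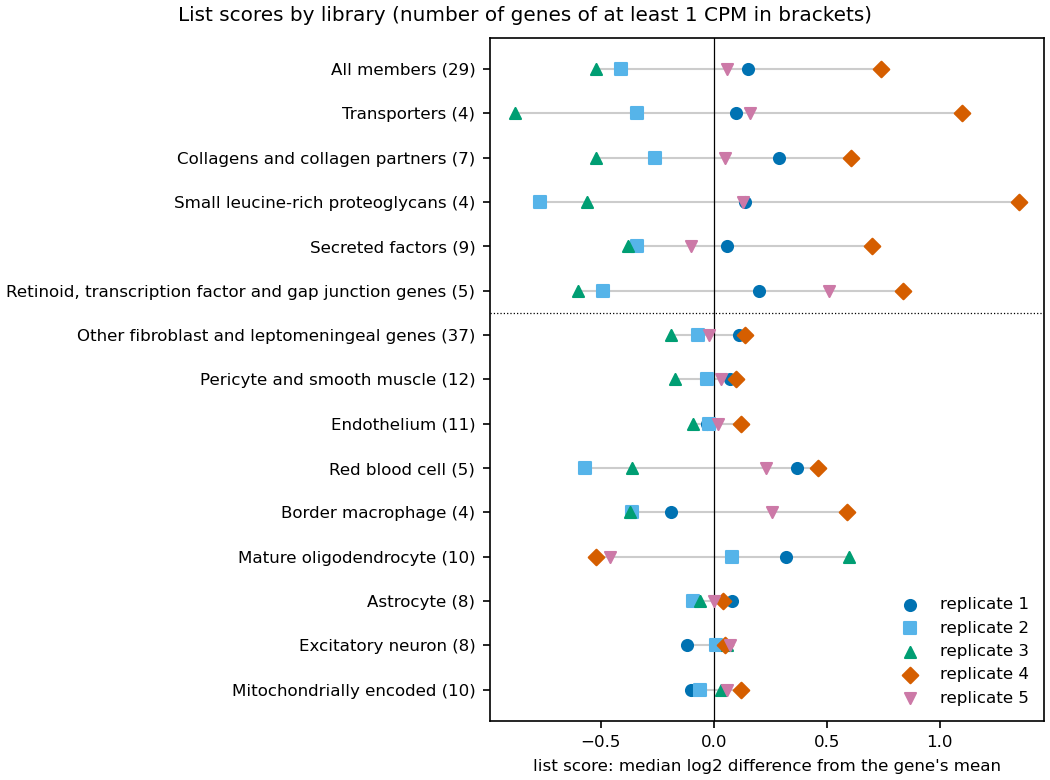
Each marker is the score of a list in a library, the median log2 CPM less the gene's mean over its genes of at least 1 CPM; role groups of the members lie above the dotted line and other lists below it. Replicate 4 is at the right end for the members and their 5 role groups, and at the left end for the mature oligodendrocyte list.

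Markers of other cells moved with the members to different degrees, and their part in the result was not tested. Counts highest in replicate 4 stand beside 26.9% of all genes of at least 1 CPM. Red blood cell genes were highest in replicate 4 for 4 of the 5 genes of at least 1 CPM, with a summed level of 103 to 193 CPM. Their score ran from -0.57 in replicate 2 to 0.46 in replicate 4, and Slc4a1 had 0 reads in replicate 3. Border macrophage genes, of the macrophages that live in the meninges and around vessels, were highest in replicate 4 for 3 of 4, and the 8 genes summed to 25.3 to 33.3 CPM, highest in replicate 5. Mrc1, the mannose receptor of these macrophages, stood at 2.70, 2.82, 2.15, 5.34 and 3.82 CPM. Stab1, the most abundant gene of that list, did not follow: it stood at 21.9, 22.8, 19.5, 21.3 and 24.7 CPM, highest in replicate 5.

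Vessel wall and endothelial genes spread less than the members did. The pericyte and smooth muscle score spanned 0.27 over 12 genes, with 5 highest in replicate 4 and a summed level of 235 to 272 CPM. The endothelial score spanned 0.20 over 11 genes, with 6 highest in replicate 4 and a summed level of 352 to 401 CPM. Of all genes of at least 1 CPM, 26.9% were highest in replicate 4. Choroid plexus and ependymal markers were low: the 12 genes in the table summed to 7.01 to 9.24 CPM, and the defining gene Ttr reached at most 0.352 CPM. Foxj1, a gene of ciliated cells, stood at 5.08, 4.71, 6.12, 3.39 and 4.17 CPM, lowest in replicate 4. Kl, which encodes klotho of the choroid plexus, stood at 1.35, 1.10, 1.26, 2.44 and 1.53 CPM, highest in replicate 4.

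Mature oligodendrocyte genes ran against the members at both ends. Their score was highest in replicate 3 at 0.60 and lowest in replicate 4 at -0.52, and their sum ran from 4219 to 9200 CPM. Replicate 3 was highest for 10 of 10, against 19.3% of all genes of at least 1 CPM. Astrocyte and excitatory neuron scores spanned 0.18 and 0.20. Within the neuron list, the upper-layer gene Cux2, named after its values were seen, had replicate 4 highest and replicate 3 lowest, as in the member score, at 54.6, 36.8, 24.1, 76.4 and 54.1 CPM. Depth was the reverse of the member score at the ends only, with the fewest reads in replicate 4 and the most in replicate 3. Replicate 2 had the second fewest reads (37474364) and the second lowest member score (-0.41). The share of reads from mitochondrially encoded genes was 5.70% to 6.12%, highest in replicate 4. None of these was tested as a source of the members' spread.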

How the data were processed

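RNA of 25 mouse prefrontal cortex samples was sequenced, and the deposited table of log2 values for 23990 Ensembl genes was used. Per the submitters' processing notes, the authors used STAR 2.6.1d, SAMtools 1.9, featureCounts of Subread 1.6.3 and edgeR with mm10/GRCm38; the annotation release, the strand setting and any filter on genes were not given in the sources used here. Of 25 columns, 20 match no label and were not used.

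The deposited log2 values were found to be log2 of CPM with 0.5 reads added: 100% of values gave whole reads (tolerance 1e-04 reads), with effective sizes 0.998 to 1.04 times the total reads. CPM here is per effective size, and RPKM divides it by the union exon length of GENCODE M21, which named 23856 genes. A chi-square test with 4 degrees of freedom per gene of at least 5 mean reads, Benjamini-Hochberg adjusted, was checked on simulated data. Spreads are on log2 values with 0.5 reads added, which understates differences of low genes. Members and lists were chosen with earlier results of these data known. All members are named. From other lists, the most abundant genes, neighbours and paralogues are named. Col4a5, Col4a6, Col5a1, Col5a2, Col8a1, Col12a1, Col15a1, Postn, Cux2, Ttr and Slc4a1 were named after their values were seen. Alternatives covered scaling, reads added before the log, filters, the mean in place of the median, and leaving out each library; list scores without replicate 4 were added after seeing the data. The computing used scipy 1.17.1 and numpy 2.4.6, with pandas 2.3.3 and matplotlib 3.10.9, in Python 3.11.15.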

Additional observations from a re-analysis of the deposited data

Results flagged for a closer look

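The 29 members of at least 1 CPM, the 3 below it and the list scores made 48 items in all. Each was checked for a library standing apart from the other 4. Chance would mark about 2.4 of 48 independent items not chosen by their values. These items overlap, and the members were chosen with their spread in view, so a mark is a description only. The check marked 1 item, fewer than that number. Aebp1, the collagen-binding protein, in replicate 4 had a gap to the nearest library of 0.731 of its whole range, and stood at 2.62 times the mean of the others, or 1.40 on the log2 scale.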

How the results depend on the processing

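Replicate 4 had the highest member score in 12 of 12 settings that kept it. With all libraries, scaling to read totals or with median-of-ratios factors, 0.1 or 2 reads added before the log, no filter, or the mean in place of the median left the member spans and counts within their limits, and 0 of 128 single-member values moved. Restricted to the 8 members of at least 10 CPM, the span was 0.71, with 5 of 8 highest in replicate 4 and 4 of 8 differing 2-fold. Leaving out 1 library at a time gave spans of 0.58 to 1.41, and 0.60 to 1.46 without Col6a1 and Col6a2. It gave 23 to 26 members highest in replicate 4, 10 to 22 with a 2-fold difference, and 12646 to 13125 genes varying beyond counting error. In each case the value without replicate 4 was the low end for the spans and the 2-fold count. Of 160 single-member values, 17 moved: 13 without replicate 4, 3 without replicate 3 and 1 without replicate 2. The cause was not tested. No paired analysis was possible because the columns that could be used belong to a single group. Members near 1 CPM rest on few reads per library.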
